A study of Mus musculus with 3 samples.

Results

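Complement components and regulators were followed in spheroids of 4T1 mouse breast cancer cells grown under stem cell conditions, in 6 genes out of 24402 in the files. The genes were C3, C4b and Cfb, whose products carry out complement activation, and Serping1, Cd55 and Cd59a, whose products restrain it. They were taken by gene symbol from the transcript lines of each library, and the list was made with earlier results of these data known. The abundance of a gene was the sum over its RefSeq transcripts. All 6 were listed in the files of each of the 3 libraries, some of them at 0, and 3 of them reached an abundance of 1 FPKM (fragments scaled to transcript length and library size) in at least 1 library.

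Complement is a set of plasma and membrane proteins that tags cells and microbes for removal. Its classical, lectin and alternative routes meet at the cleavage of C3, after which the terminal components can build a pore in the target membrane. The liver makes most of the circulating proteins, but epithelial and tumor cells also make several of them, and interferons and inflammatory cytokines are known inducers of C3, C4 and factor B. Cells protect themselves with inhibitors in plasma and with membrane proteins, some of them held by a glycolipid (GPI) anchor.

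The study asked how cancer stem cell spheroids (CSCsp) respond to immune cells. 4T1 is a triple negative mammary carcinoma line of BALB/c mice, and the spheroids were grown for 7 days in serum-free medium on plates to which cells do not attach. The library labelled R came from CSCsp co-cultured with splenocytes of tumor-bearing mice whose activation had been reinforced with anti-CD3/CD28 beads and IL2, the library labelled P from CSCsp co-cultured with such tumor antigen primed splenocytes without that step, and the library labelled N from CSCsp without co-culture. Splenocytes came from mice that were injected with 4T1 cells at 8 weeks of age and kept for 28 days, and they were washed off through a strainer before RNA was taken.

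Each condition had 1 library, for which the study combined RNA of independent experiments, so that no spread between samples was available and no test between conditions was run. A gene was counted as higher or lower when its ratio was at least 2-fold, computed after adding 0.1 FPKM to both values, and when its FPKM was at least 1 in either library. Intervals on ratios are exact 95% Clopper-Pearson intervals on fragment numbers and cover counting error only. The library labelled R held 19178982 fragments, P 17887652 and N 17894139, estimated at 300 bases each.

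The labels of the libraries labelled N and P were in doubt. The values of N were deposited under a name that stands for the saline used to hold primed splenocytes, and those of P under a name for no treatment. Of 38 leukocyte markers, 13 reached 1 FPKM in R, 3 in P and 11 in N, with summed levels of 80.7, 44.8 and 111 FPKM in that order, and 22 of the 38 were listed at 0 in P, against 7 in each of the others. Ptprc, the pan-leukocyte marker CD45, stood at 0.31 FPKM in R, at 0 in P and at 0.20 FPKM in N. All 6 epithelial markers passed 1 FPKM in each library, with sums of 1450 FPKM in R, 1680 FPKM in P and 1990 FPKM in N. Libraries are named here by their labels, and results that turn on N or P are also given with these labels exchanged.

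C3, the central component that all routes cleave, was the most abundant member. It lies on the minus strand of chromosome 17 at 57203967 to 57228136 (GRCm38) and has 41 exons in the single transcript listed. C3 measured 515 FPKM in R, 155 FPKM in P and 527 FPKM in N, from 50783, 14270 and 48475 fragments. R and N were thus close together and P was the low library. By level C3 ranked 67 in R, 251 in P and 84 in N among the 24402 genes.

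The 250 bases upstream of the C3 start site are shown because this was the most abundant member, beside those of the membrane regulators Cd55 and Cd59a, which were at or near 0. The sequences are from RefSeq (GRCm38.p6), which gave promoters for 3 of the 6 members. Capitals mark matches to an interferon regulatory factor motif (AANNGAAA) and to a C/EBP motif (TTGCNNAA), searched on both strands.
C3, chr17:57228137-57228386, minus strand: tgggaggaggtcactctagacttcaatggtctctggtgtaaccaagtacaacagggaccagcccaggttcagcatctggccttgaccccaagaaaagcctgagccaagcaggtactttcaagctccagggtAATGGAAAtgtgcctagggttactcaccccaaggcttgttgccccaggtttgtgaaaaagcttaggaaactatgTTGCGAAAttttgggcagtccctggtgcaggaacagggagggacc
Cd55, chr1:130462745-130462994, minus strand: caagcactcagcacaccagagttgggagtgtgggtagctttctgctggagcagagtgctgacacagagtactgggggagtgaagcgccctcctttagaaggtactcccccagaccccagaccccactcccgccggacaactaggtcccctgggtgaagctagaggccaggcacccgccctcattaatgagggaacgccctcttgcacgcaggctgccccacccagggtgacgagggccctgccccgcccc
Cd59a, chr2:104095551-104095800, plus strand: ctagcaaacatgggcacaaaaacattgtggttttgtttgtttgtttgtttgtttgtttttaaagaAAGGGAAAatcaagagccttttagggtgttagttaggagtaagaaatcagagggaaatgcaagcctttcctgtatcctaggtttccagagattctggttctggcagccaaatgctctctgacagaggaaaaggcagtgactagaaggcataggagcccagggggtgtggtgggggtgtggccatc

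In the C3 window, the interferon regulatory factor match began at position -119 and the C/EBP match at -45, counted back from -1 at the base before the start site, and the matches did not overlap. The Cd59a window held 1 interferon regulatory factor match, at -185, and the Cd55 window held no match. Neither the gamma-activated sequence TTCNNNGAA nor the NF-kB motif was found in these 3 windows. Of 32851 promoter windows of the same length, 21.3% held the interferon regulatory factor motif, 9.56% the C/EBP motif, 7.02% the gamma-activated sequence and 7.25% the NF-kB motif.

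**Figure D1:**
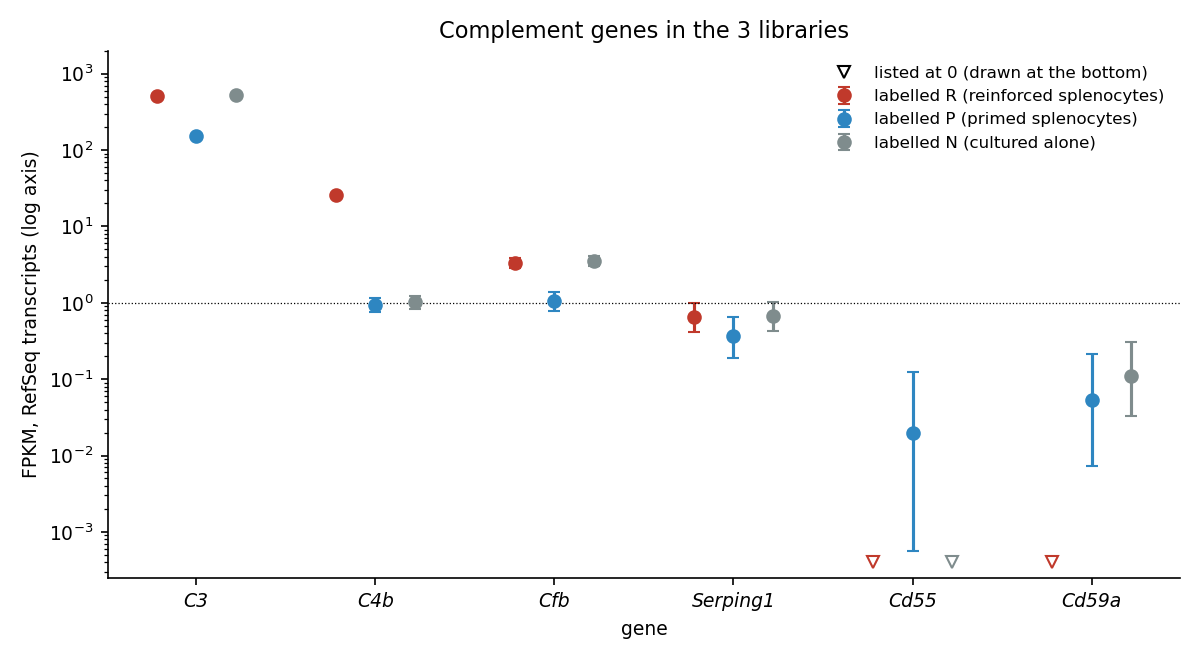
FPKM of the 6 genes (log axis) in the libraries labelled R, P and N, from RefSeq transcripts, with exact 95% Poisson counting intervals as bars and open triangles for values listed at 0. The dotted line is at 1 FPKM. C3 is low in P (155 FPKM, against 515 in R and 527 in N), C4b is high in R (25.7 FPKM), and the 3 regulators are all under 1 FPKM.

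C3 was 3.32-fold higher in R than in P (interval 3.26 to 3.38), and P was at 0.29 of N (0.289 to 0.300). R over N was 0.977 (0.965 to 0.990), within 2-fold. The difference ran along the whole transcript. Over the 41 exons the depth ratio of R over P lay between 2.97 and 3.60 and that of P over N between 0.267 and 0.329. With the labels N and P exchanged, C3 would measure 515 FPKM with reinforced splenocytes, 527 FPKM with primed splenocytes and 155 FPKM in CSCsp alone.

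The summed leukocyte markers moved with C3 in that they too were lowest in P, and their part in the C3 level was not tested. C3 itself stood at 155 FPKM in P, where Ptprc was at 0, and at 527 FPKM in N, where Lyz2, a macrophage and neutrophil lysozyme, had 28.9 FPKM. Since the libraries are bulk RNA, fewer cells of a type and less RNA per cell cannot be told apart.

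C4b encodes complement C4, which is cleaved by C1s and joins C2 in the C3-cleaving enzyme of the classical and lectin routes. It lies at 34728381 to 34743897 on the minus strand of chromosome 17, in the class III region of the major histocompatibility complex (MHC). C4b measured 25.7 FPKM in R, 0.945 FPKM in P and 1.01 FPKM in N, from 2662, 91 and 98 fragments. R stood apart from both other libraries, and P and N differed by less than their counting error.

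C4b was 25.4-fold higher in R than in N (20.8 to 31.4) and 27.2-fold higher in R than in P (22.1 to 33.9), while P over N was 0.93 (0.69 to 1.25). By RefSeq transcripts it was the member with the largest ratio in both comparisons that involve R, while with assembled transcripts added Cfb had the larger ratio of R over P, 13.5. Because P and N gave nearly the same value, exchanging their labels left C4b higher in R in both comparisons. The summed leukocyte markers were at 80.7 FPKM in R, 44.8 FPKM in P and 111 FPKM in N, with most of the P sum on Cd68, Cd14 and Ltf. Single leukocyte markers differed in order. Lyz2 had 6.51 FPKM in R, 0.313 FPKM in P and 28.9 FPKM in N, while Mpeg1, a macrophage marker, had 6.60 FPKM in R, 0 in P and 0.697 FPKM in N, and Gzmb, a marker of cytotoxic cells, had 1.58 FPKM in R, 0 in P and 0.275 FPKM in N. The other markers on the list of Gzmb did not share its order. Prf1 had 0.030 FPKM in R, 0 in P and 0.052 FPKM in N, and Nkg7, Klrb1c and Ncr1 were at 0 in all 3 libraries. The T cell markers summed to 0.458 FPKM in R, 0 in P and 0.0687 FPKM in N, and the part of leukocyte RNA in the C4b level was not tested.

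The size of the C4b ratio depended on the transcripts that were summed. C4b shares its locus with C4a, a near-identical copy, and the assembly held another 2 transcripts that join the 3′ exons of C4b to 5′ exons of C4a. The longer of these had 9.96 FPKM in R, 3.40 FPKM in P and 3.21 FPKM in N, and the shorter had 3.69 FPKM in R, 0 in P and 0.014 FPKM in N. C4a itself had 0.632 FPKM in R, 0.266 FPKM in P and 0.239 FPKM in N. Assembled transcripts thus carried 34.1% of the FPKM of the locus in R but 73.7% in P and 72% in N.

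With the assembled transcripts added, C4b measured 39.4 FPKM in R, 4.34 FPKM in P and 4.24 FPKM in N. R was then 9.30-fold above N (8.37 to 10.4) and 9.08-fold above P (8.18 to 10.1). Over the 4 transcripts of the whole C4b and C4a locus, R was 8.94-fold above N and 8.69-fold above P. The division of reads between the near-identical copies is uncertain, and the sum over the locus takes in the reads of both.

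Read depth by exon gave a similar size. The 9 C4b exons that belong to no other transcript had a mean depth of 120 in R, 13.3 in P and 14.8 in N, so that R was 7.60-fold above N and 8.43-fold above P after scaling to the aligned bases. The other 32 exons, shared with an assembled transcript, had mean depths of 221 in R, 22.9 in P and 21.8 in N, with R 9.43-fold above N and 9.0-fold above P. Of the 41 exons, 40 had reads in all 3 libraries, and these 40 were each at least 2-fold deeper in R than in N and in P.

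**Figure D2:**
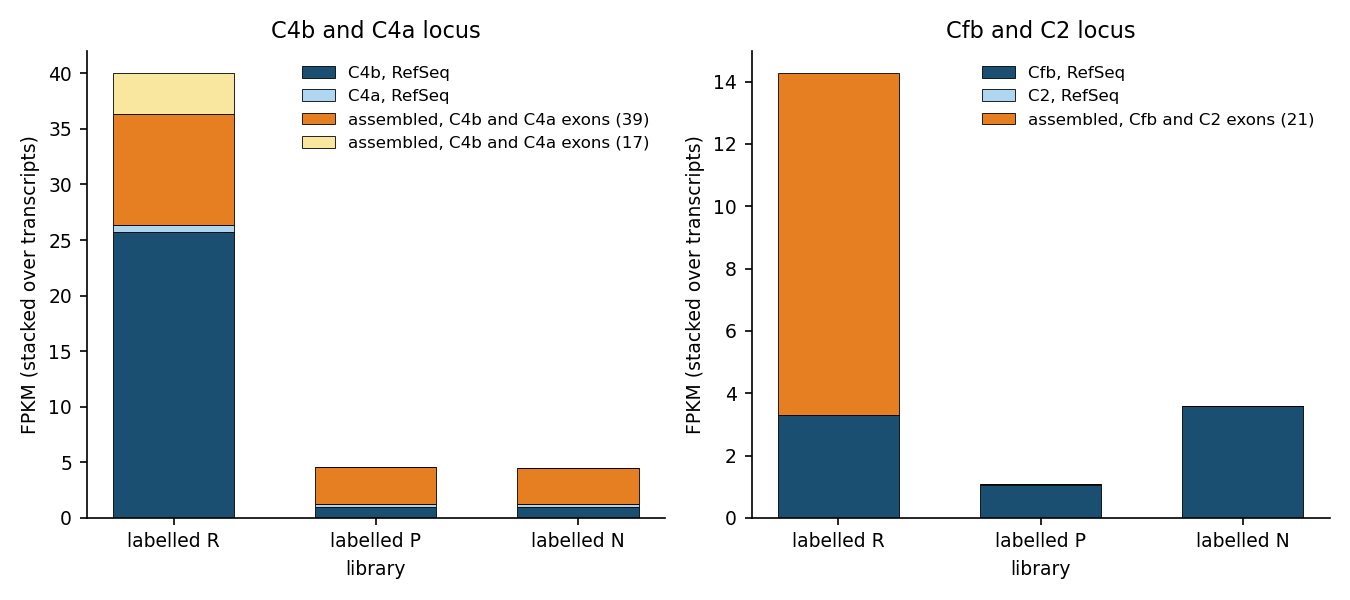
FPKM of each transcript, stacked, at the C4b and C4a locus and at the Cfb and C2 locus in the libraries labelled R, P and N. Numbers in brackets are exons of the assembled transcripts, which carry 34.1% of the C4b and C4a locus and 76.8% of the Cfb and C2 locus in R.

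Cfb encodes factor B, the protease that joins C3b in the C3-cleaving enzyme of the alternative route. It lies in the same region as C4b, on the minus strand of chromosome 17 at 34856374 to 34862601. Its RefSeq transcripts measured 3.31 FPKM in R, 1.05 FPKM in P and 3.58 FPKM in N, from 180, 53 and 181 fragments. By this sum R and N were alike and P was low, the same order of libraries as for C3.

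R over P was 3.14 (2.30 to 4.36), P over N was 0.294 (0.212 to 0.401), and R over N was 0.924 (0.748 to 1.14). An assembled transcript changed the comparison of R with N. It spans 34856374 to 34863716 and joins exons of Cfb to 3 exons at the end of the neighbouring gene C2, and it had 10.97 FPKM in R, 0.00369 FPKM in P and 0 in N. With it, Cfb measured 14.3 FPKM in R, 1.06 FPKM in P and 3.58 FPKM in N, so that R was 3.99-fold above N (3.40 to 4.71) and 13.5-fold above P (10.3 to 18.2).

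The exons of Cfb were read more deeply in R than the RefSeq transcripts alone show. Cfb exons 2 to 18 had a mean depth of 115 in R, 6.56 in P and 21.8 in N, which placed R 4.94-fold above N and 16.4-fold above P, and P at 0.301 of N, after scaling. The 3 exons of the assembled transcript outside Cfb had a mean depth of 0.853 in R, 0.212 in P and 0 in N, so that nearly all of its reads lay on exons that Cfb also has. C2, the classical route partner of C4, was listed at 0 in R and N and at 0.020 FPKM in P. By the depth of exons 2 to 18 Cfb was highest in R and lowest in P. Exon 1, whose boundary differs in the assembled transcript so that RefSeq reads alone were counted there, had a depth of 4.68 in R, 1.95 in P and 8.43 in N, with R at 0.518 of N. The exon of the assembled transcript with the other boundary, of 980 bases, was not included. Its depth was 11.04 in R, 0.004 in P and 0 in N. With the labels N and P exchanged, the depth of exons 2 to 18 would place CSCsp alone lowest and CSCsp with reinforced splenocytes highest.

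**Figure D3:**
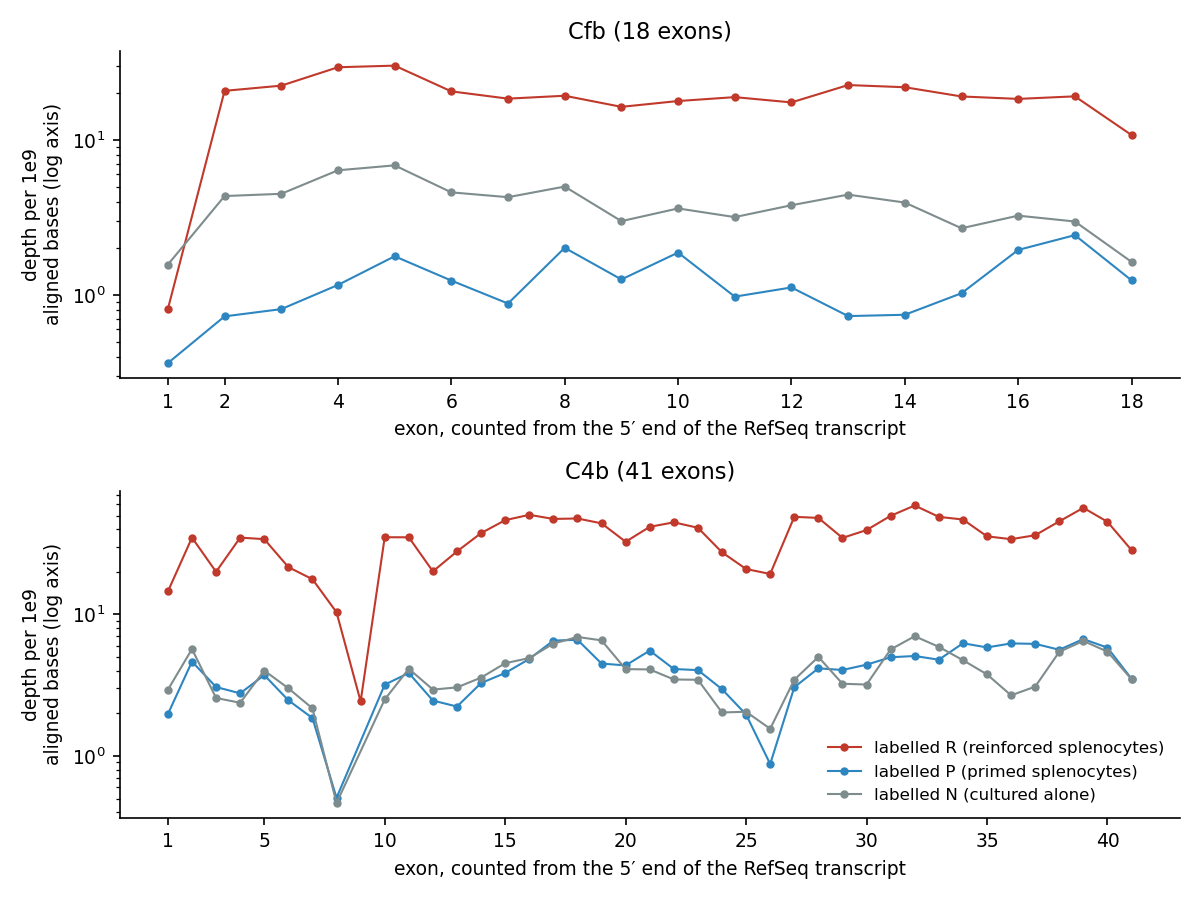
Read depth scaled to the aligned bases of the library (log axis) over the exons of Cfb and C4b, summed over the transcripts that hold the exon, in the libraries labelled R, P and N. Exons at 0 are not drawn. Cfb exons 2 to 18 are deepest in R and shallowest in P, and C4b exons are deeper in R while P and N overlap. Exon 1 of Cfb has another boundary in the assembled transcript and counts RefSeq reads alone.

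Serping1 encodes C1 inhibitor, the plasma protein that inactivates C1r and C1s, and lies on the minus strand of chromosome 2 at 84765360 to 84775429. It measured 0.654 FPKM in R, 0.364 FPKM in P and 0.664 FPKM in N, from 23, 12 and 22 fragments. All 3 values were under the 1 FPKM minimum, and their order was again that of C3, but the counting intervals of all 3 ratios included 1. R over P was 1.80 (0.857 to 3.96), P over N was 0.549 (0.248 to 1.16) and R over N was 0.985 (0.525 to 1.85), so no difference was detectable at this depth.

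Cd55 and Cd59a encode GPI-anchored membrane regulators. CD55 speeds the decay of the C3-cleaving enzymes, and CD59 blocks the last step of the membrane pore. Cd55, on the minus strand of chromosome 1 at 130439030 to 130462740, was listed at 0 in R and N and at 0.020 FPKM in P, where 1 fragment was found. A count of 0 allowed up to 0.0619 FPKM in R and 0.0664 FPKM in N, at 3 fragments per library.

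Cd59a, on the plus strand of chromosome 2 at 104095801 to 104115410, was listed at 0 in R, at 0.053 FPKM in P from 2 fragments and at 0.108 FPKM in N from 4 fragments. A count of 0 allowed up to 0.0838 FPKM in R. These few fragments gave no basis for a fold change in either gene. Cd59b, the paralog of Cd59a, and Cd55b, the paralog of Cd55, were listed at 0 in all 3 libraries.

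**Figure D4:**
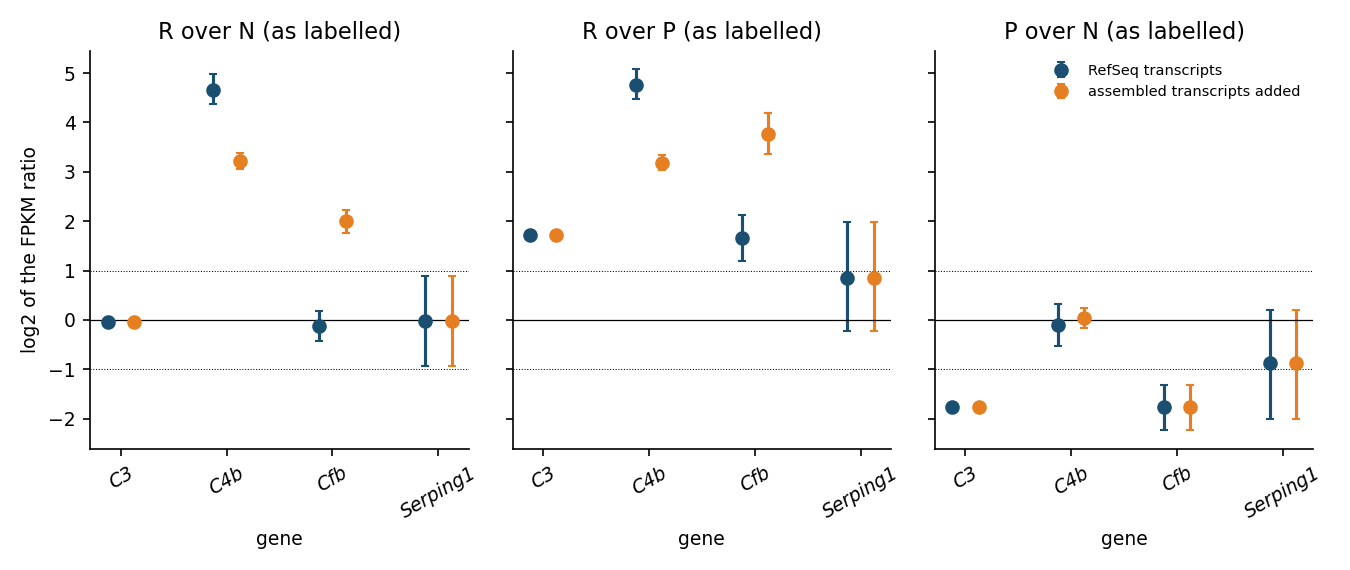
Log2 of the FPKM ratio of C3, C4b, Cfb and Serping1 for R over N, R over P and P over N, from RefSeq transcripts and with assembled transcripts added; bars are exact 95% counting intervals and dotted lines mark 2-fold. For R over N, C4b stands at 25.4-fold by RefSeq transcripts and at 9.30-fold with assembled transcripts, and Cfb at 0.924 and 3.99.

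Counted over the 6 members, R over N had 1 gene higher (C4b) and 0 lower, where 5.17% of 10270 genes past the filter were higher and 3.8% lower. With assembled transcripts added, 2 members (C4b and Cfb) were higher, where the share over all genes was 3.09%. R over P had 3 members higher (C3, C4b and Cfb) and 0 lower, against 6.21% higher and 3.69% lower of 10292 genes, and 4.16% higher with assembled transcripts. P over N had 2 members lower (C3 and Cfb) and 0 higher, against 3.54% lower and 2.74% higher of 10200 genes, and 1.55% lower with assembled transcripts.

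The median log2 ratio over the 6 members was -0.03 with R set against N, 1.13 with R against P and -0.58 with P against N. These medians take in 3 members under 1 FPKM. Over the 3 members past the filter the values were -0.03, 1.73 and -1.68 in the same order of comparisons, and 1.97, 3.15 and -1.67 with assembled transcripts added. Over all genes past the filter, by RefSeq transcripts, they were 0.09, 0.06 and 0.02. The members with an FPKM of at least 1 were all activating components, and the 3 regulators on this list stayed below it. With the labels N and P exchanged, 3 members would be higher in R than in N, 1 member higher in R than in P, and 2 members higher in P than in N.

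Of 52 other complement genes, 10 reached 1 FPKM by RefSeq transcripts in at least 1 library and 17 were listed at 0 in all 3. Set against N, R had 5 of them higher among 10 past the filter, where the share over all genes was 5.17%. Set against P, it had 6 higher among 10, where that share was 6.21%. Among 9 past the filter, 2 fell in P relative to N, where 3.54% of all genes did. The opposite direction held 0 of these genes in each comparison. Once assembled transcripts were added, the counts became 5 among 12, 5 among 12 and 0 among 11, in the same order. The 5 genes higher in R in both comparisons were the proteases of the first classical component and their relatives, C1ra, C1rb, C1rl, C1s1 and C1s2. None of the 9 lectin route genes, 2 alternative route genes and 7 terminal pathway genes on the list reached 1 FPKM by RefSeq transcripts. With assembled transcripts added, Masp1, a protease of the lectin route, had 15.4 FPKM in R, 8.86 FPKM in P and 13.7 FPKM in N, and Cfp, which stabilises the alternative route enzyme, had 1.48 FPKM in R, 1.39 FPKM in P and 1.39 FPKM in N.

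C1ra, the protease that activates C1s, measured 45.6 FPKM in R, 5.15 FPKM in P and 9.82 FPKM in N. It was 4.64-fold higher in R than in N (4.21 to 5.13) and 8.85-fold higher in R than in P (7.78 to 10.1). C1rb, its near copy, had 12.1 FPKM in R, 1.43 FPKM in P and 2.48 FPKM in N. The division of reads between such copies is uncertain, but both copies were highest in R and lowest in P.

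C1s1, the protease that cleaves C4, had 32.3 FPKM in R, 1.11 FPKM in P and 5.63 FPKM in N. With assembled transcripts added it had 58.3 FPKM in R, 5.20 FPKM in P and 9.23 FPKM in N, which removed the 2-fold difference of P from N. C1rl had 5.85 FPKM in R, 2.48 FPKM in P and 2.79 FPKM in N, just past 2-fold for R over N at 2.09 (1.72 to 2.55). C1s2, the near copy of C1s1, had 1.81 FPKM in R, 0.304 FPKM in P and 0.298 FPKM in N. The genes of C1q, the recognition part of the same complex made largely by macrophages, were at most 0.27 FPKM in any library.

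Of the regulators outside the members, Clu was within 2-fold in all 3 comparisons. Clu, which binds the forming pore, had 282 FPKM in R, 309 FPKM in P and 342 FPKM in N. Cr1l, the rodent membrane regulator Crry, had 2.36 FPKM in R, 0.827 FPKM in P and 2.19 FPKM in N by RefSeq transcripts, but 6.60, 4.85 and 5.29 FPKM in the same libraries with assembled transcripts, where no difference reached 2-fold. Itgb2, a subunit of the complement receptors of leukocytes, had 33.4 FPKM in R, 35.9 FPKM in P and 26.3 FPKM in N. Itgam and Itgax, other genes of the list, were under 1 FPKM in each library. Itgam had 0.376 FPKM in R, 0 in P and 0.876 FPKM in N, and Itgax had 0.039 FPKM in R, 0.011 FPKM in P and 0.641 FPKM in N.

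**Figure D5:**
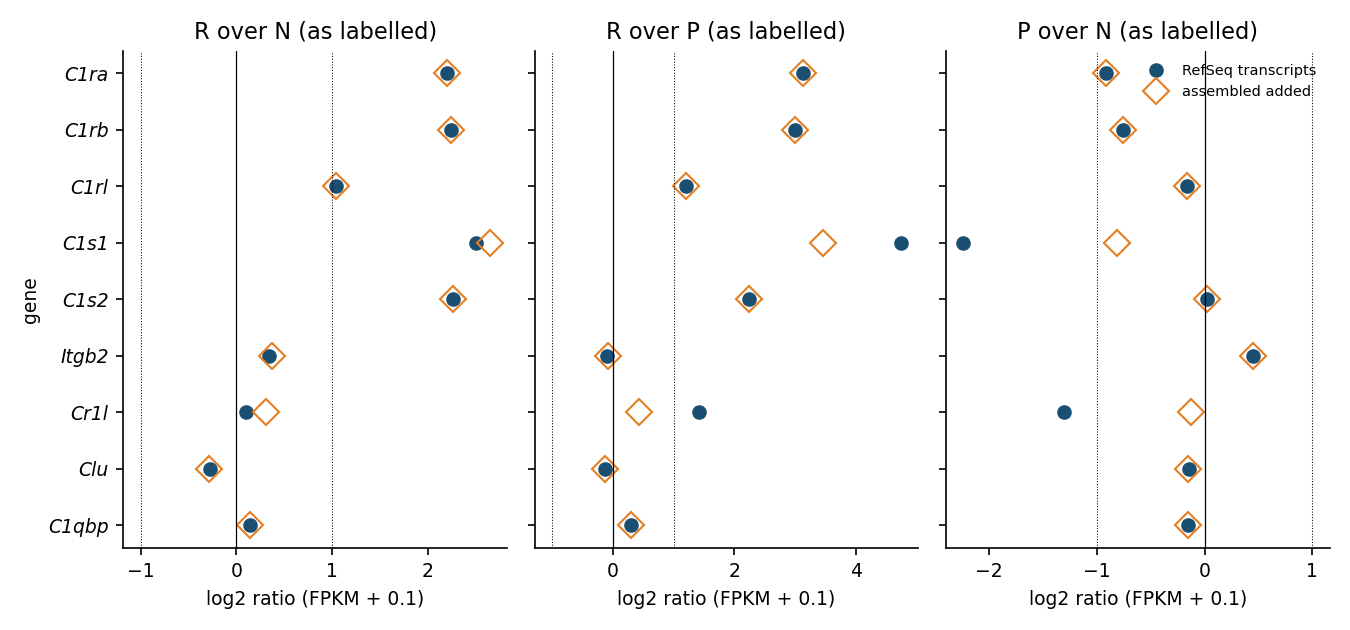
Log2 ratio, with 0.1 FPKM added, of 9 of the other complement genes that reached 1 FPKM, for R over N, R over P and P over N, from RefSeq transcripts (filled) and with assembled transcripts added (open). The 5 C1r and C1s genes lie past 2-fold (dotted lines) in both comparisons with R, and Clu, C1qbp and Itgb2 lie within it.

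The targets of C1 inhibitor beyond complement and the GPI anchor pathway gave few differences. Plat, the tissue plasminogen activator, had 3.81 FPKM in R, 9.37 FPKM in P and 8.92 FPKM in N. It was lower in R in both comparisons. Of 22 GPI anchor genes past the filter, 20 were within 2-fold for R over N, where 5.17% of all genes were higher and 3.8% lower. The exceptions, Piga and Pigb, came within 2-fold once assembled transcripts were added. Cd55 and Cd59a were thus at or near 0 in libraries that expressed most genes of the anchor pathway.

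The chromosomal neighbours of C4b and Cfb in the MHC class III region were mostly within 2-fold. Of 12 neighbours past the filter, 0 were higher and 2 lower in R than in N, and of 13 for R over P, 0 were higher and 2 lower. Over all genes, 5.17% were higher and 3.8% lower for R over N, and 6.21% higher and 3.69% lower for R over P. The lower neighbours were the heat shock genes Hspa1a and Hspa1b. Hspa1a had 20.0 FPKM in R, 41.3 FPKM in P and 42.0 FPKM in N. Nelfe, which lies beside Cfb, had 26.5 FPKM in R, 16.1 FPKM in P and 17.96 FPKM in N.

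For each member with enough fragments, the 3 genes whose R over N and P over N ratios came nearest were found among up to 6791 genes of at least 5 FPKM in some library. With 3 libraries such likeness is a description of 2 ratios. Nearest to C3 were Pak4 (17.99 FPKM in R, 5.39 FPKM in P and 18.7 FPKM in N), Stx16 and Ppp4r2, at distances of 0.03 to 0.20 on the log2 scale. Nearest to C4b by its RefSeq transcripts were Ciita, the master regulator of MHC class II genes (8.69 FPKM in R, 0.256 FPKM in P and 0.320 FPKM in N), Batf2 and Fcho2, at 0.21 to 0.43. The log2 ratio of C4b for R over N was 4.54 by this sum and 3.19 with assembled transcripts, for which no neighbours were sought. Nearest to Cfb by its RefSeq transcripts were Dtx3, Pak4 and C3 itself, each at 0.12. The log2 ratio of Cfb for R over N was -0.11 by this sum but 1.97 with assembled transcripts, while that of C3 was -0.03 by both. The likeness of Cfb to C3 thus held for the RefSeq sum alone. Nearest to Serping1 were Jak3, Cd164 and Clptm1, but 79 genes lay within 0.25 of it, against 5 for C3, 1 for C4b and 6 for Cfb. Serping1 had at most 23 fragments in a library, and the intervals of all 3 of its ratios included 1. Its nearest genes were therefore not resolved beyond counting error.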

How the data were processed

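The series holds 3 RNA-seq libraries of 4T1 CSCsp, labelled R, P and N, 1 per condition. The authors aligned reads with HISAT2 (2.2.0) and quantified a merged set of RefSeq and assembled transcripts with StringTie (2.1.3 per the labels, 2.1.5 per the file headers). For each transcript, FPKM, TPM and coverage were deposited, and coverage also for each exon. The labels name mm9, but 98.6% of 23188 symbols lay at their GRCm38 position, all 6 members included, so coordinates are given as GRCm38.

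For the main values, the FPKM of a gene's RefSeq transcripts (34970 in all) were added up. Of 12520 assembled transcripts, 9352 could be assigned to a gene by shared exonic bases and strand, and they were added as an alternative chosen after seeing the data. Fragments were estimated as aligned bases divided by 300. Python 3.11.15, NumPy 2.4.6, pandas 2.3.3 and SciPy 1.17.1 were used, and the ratio and call steps were tested on simulated data.

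The members and the gene lists were chosen with earlier results of these data known. The text names all members, up to 6 genes per list with at least 1 FPKM in some library (the highest and those furthest apart), and the 3 genes nearest in pattern. Genes named outside this rule, among them Ptprc, Prf1, Nkg7, Klrb1c, Ncr1, C2, C4a, Cd55b, Cd59b, Masp1, Cfp, Itgam, Itgax, the C1q genes and Nelfe, were chosen after their values were seen. Some genes that the rule names are withheld and not reported here.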

Additional observations from a re-analysis of the deposited data

How the results depend on the processing

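RefSeq transcripts alone is the sum used in the report. A pseudocount of 0.01 FPKM left all counts as given, and the members' median for P over N was then -0.882, against -0.583. With the deposited TPM, on which the same minimum of 1 lets other genes pass, other complement genes higher and lower in R than in N numbered 8 and 3, and those higher and lower in P than in N 2 and 5. With TPM, 9 other complement genes were higher in R than in P. With a pseudocount of 1 FPKM the members' median for R over P was 0.674 and that for P over N -0.18, and 1 other complement gene was lower in P than in N. At this pseudocount 4 other complement genes were higher in R than in N and 4 higher in R than in P. Without a filter, 1 member was lower in R than in N, and other complement genes numbered 8 higher and 5 lower for R over N, 10 higher for R over P, and 3 higher and 10 lower for P over N. A filter of 5 FPKM left 1 member and 1 other gene lower in P than in N. It also left 2 members and 4 other genes higher in R than in P, and 4 other genes higher in R than in N. Taking the transcript of the highest mean left 1 other gene lower in P than in N. Rescaling by the median ratio, 1.041 for R and 1.005 for P relative to N, changed no count of members or other genes beyond 1.5 times. With assembled transcripts added, 2 members were higher in R than in N, 5 other genes were higher in R than in P and 0 other genes were lower in P than in N. With the labels N and P exchanged, 3 members were higher in R than in N, 1 in R than in P, and 2 higher and 0 lower in P than in N, as were 2 and 0 other genes. The members' medians were then 1.13 with R against N, -0.0261 with R against P and 0.583 with P against N. C3 turned to -0.0329 and Cfb to -0.111 on the log2 scale for R over P, and to 1.76 and 1.68 for P over N. No paired analysis was possible because each condition had 1 library, and for the same reason no library could be left out. Depth limited Serping1, Cd55 and Cd59a, which had at most 23 fragments in a library.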

Other observations

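Known inducers of complement genes and other acute phase genes were read beside the members. Of 9 inducers past the filter, 6 were within 2-fold for R over N, among them Rela, a subunit of NF-kB, with 55.1 FPKM in R, 49.5 FPKM in P and 54.9 FPKM in N, and 3 were higher. With R set against P, 4 of 9 were higher and 5 within 2-fold, and with P set against N, 2 were lower and 7 within 2-fold. Over all genes past the filter, 5.17% were higher for R over N, 6.21% higher for R over P and 3.54% lower for P over N. Irf1, an interferon-induced transcription factor, had 261 FPKM in R, 51.1 FPKM in P and 77.8 FPKM in N. It was highest in R, as C4b was, at 3.36-fold over N (3.23 to 3.50). Il1a, an inflammatory cytokine, had 27.4 FPKM in R, 4.51 FPKM in P and 9.88 FPKM in N. Ifng was listed at 0 in all 3 libraries.

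Of 19 acute phase genes, 4 passed the filter for R over N, with 1 lower and 3 within 2-fold, 3 for R over P, with 2 higher, and 4 for P over N, with 3 lower. The shares over all genes were 3.8% lower for R over N, 6.21% higher for R over P and 3.54% lower for P over N. Cebpd, a transcription factor of the acute phase response, was counted among the inducers and not among these 19 genes. It had 7.31 FPKM in R, 2.02 FPKM in P and 8.04 FPKM in N, with R and N close together and P low, the order seen for C3. Lcn2, an iron-carrier binding acute phase protein, had 1894 FPKM in R, 542 FPKM in P and 1124 FPKM in N. Saa3, a serum amyloid A made outside the liver, had 3.87 FPKM in R, 1.59 FPKM in P and 5.67 FPKM in N. Lcn2 and Saa3, which were among the 3 lower acute phase genes, and the inducer Cebpd were each lower in P than in N by at least 2-fold. With these labels exchanged each would be higher in CSCsp with primed splenocytes than in CSCsp alone.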
